A study of Mus musculus with 18 samples.

Results

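H3K27ac regions of the WT mouse liver were sorted by whether they carry H3K4me3, the chromatin mark of gene starts, and the resulting classes were compared. Regions were formed by merging the H3K27ac peaks of the 3 WT libraries (WT 1, WT 2 and WT 4), and those with a peak in all 3 were kept. That left 25758 of the 46463 regions found in any WT library, against 57360 found in any of the 6 WT and KO libraries of the series. A region that shared at least 1 bp with a peak of the WT H3K4me3 library (WT 2) was called marked, and the others unmarked. There were 10763 marked and 14995 unmarked regions, so 41.8% of the regions were marked. Of the 20705 regions called in 1 or 2 WT libraries only, 4.4% overlapped H3K4me3.

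The livers came from C57BL/6 mice aged 8 weeks. WT animals had both Ctcf alleles floxed and no Alb-Cre transgene (CTCF fl/fl Albcre-), and KO animals had the same floxed alleles with the transgene (CTCF fl/fl Albcre+). Alb-Cre is driven by the albumin promoter and so deletes mainly in hepatocytes, the liver's main cell type. Every comparison of the classes used WT libraries, and KO libraries served only to look the same regions up again. The WT factor libraries were PPARg WT 4 and WT 2 and CTCF WT164 and WT165. Both CTCF libraries and PPARg WT 2 were tagmentation libraries from fasted males, whereas sex and feeding are not stated for the histone libraries and PPARg WT 4, which a ligation kit produced. The labels do not say whether the numbered libraries of one target came from separate animals, so a p-value here measures only the spread between libraries.

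H3K27ac, acetylation of histone H3 at lysine 27, lies on active promoters and active enhancers alike, while H3K4me3, trimethylation of lysine 4, gathers at the starts of genes in use. An H3K27ac region without H3K4me3 is therefore commonly read as a candidate enhancer, the distant element through which tissue-specific factors act. PPARg is a nuclear receptor of the fat-storage programme that binds DNA as a partner of RXR, at a pair of half-sites known as DR1. CTCF is the zinc-finger protein of insulators and chromatin loops, and it also sits at many promoters. H3K4me1, the usual enhancer mark, was not among the lists used here, so the classes are called marked and unmarked rather than promoters and enhancers.

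Start sequences of 5 genes are shown because they span the kinds of start that the results below compare. Each is the 250 bases before a listed start, from RefSeq on build GRCm38.p6, the assembly also called mm10, and all 5 genes lie on the plus strand. In the Ctcf, Alb and Pparg sequences the capitals mark CpG dinucleotides. In Rplp0 they mark a match to a CTCF core (CCA, AG and GGC in that order with NN between each), and in Fabp1 a match to a DR1 element (AGGNCA, N and AGGNCA again) on the opposite strand.
Ctcf (marked start with a CTCF site, chr8:105636288-105636537): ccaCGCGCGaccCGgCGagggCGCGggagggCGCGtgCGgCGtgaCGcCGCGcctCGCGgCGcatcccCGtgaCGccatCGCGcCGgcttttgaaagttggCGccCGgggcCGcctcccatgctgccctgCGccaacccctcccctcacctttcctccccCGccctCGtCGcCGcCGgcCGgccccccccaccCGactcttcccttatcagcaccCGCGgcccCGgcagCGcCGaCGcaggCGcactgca
Rplp0 (marked start with a CTCF site, chr5:115559217-115559466): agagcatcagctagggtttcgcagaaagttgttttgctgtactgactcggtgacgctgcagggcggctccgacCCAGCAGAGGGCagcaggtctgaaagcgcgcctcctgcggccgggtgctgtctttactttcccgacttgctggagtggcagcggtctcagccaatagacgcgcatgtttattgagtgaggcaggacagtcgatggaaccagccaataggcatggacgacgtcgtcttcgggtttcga
Alb (start inside a marked region, chr5:90460620-90460869): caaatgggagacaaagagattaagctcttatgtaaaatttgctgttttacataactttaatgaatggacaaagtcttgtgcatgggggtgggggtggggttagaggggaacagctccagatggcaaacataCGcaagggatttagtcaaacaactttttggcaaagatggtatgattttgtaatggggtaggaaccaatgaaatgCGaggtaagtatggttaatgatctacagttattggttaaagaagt
Fabp1 (marked start with a PPARg site, chr6:71199629-71199878): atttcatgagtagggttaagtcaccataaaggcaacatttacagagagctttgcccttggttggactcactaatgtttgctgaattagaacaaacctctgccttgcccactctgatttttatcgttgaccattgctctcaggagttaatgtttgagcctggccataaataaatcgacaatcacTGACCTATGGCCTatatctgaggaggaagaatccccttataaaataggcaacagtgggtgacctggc
Pparg (the third listed start, in an unmarked region with a PPARg site, chr6:115421816-115422065): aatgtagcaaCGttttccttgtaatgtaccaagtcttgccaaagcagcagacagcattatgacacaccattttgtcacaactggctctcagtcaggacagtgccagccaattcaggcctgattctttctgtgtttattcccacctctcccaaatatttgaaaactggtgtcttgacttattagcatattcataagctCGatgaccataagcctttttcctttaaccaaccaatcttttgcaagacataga

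Ctcf, the gene of CTCF itself, holds 40 CpGs in the printed stretch, and Rplp0, which encodes a protein of the ribosomal stalk, holds 19. Alb (serum albumin), Fabp1 (the liver fatty acid binding protein) and the third Pparg start hold 2 each. The CTCF core in Rplp0 begins 177 bases before the start, and the DR1 match in Fabp1 begins 67 bases before it. The H3K27ac region at the Ctcf start covered 2057, 2108 and 2045 bp in WT 1, WT 2 and WT 4, with 2232 bp of H3K4me3. At Alb the covered width was 9425, 13721 and 9922 bp in the same libraries, and at Fabp1 it was 14722, 15067 and 14386 bp. The start of Ctcf thus lay in a region narrower than those of both hepatocyte genes in all 3 libraries. The unmarked region at the third Pparg start covered 2614, 1612 and 1153 bp, so its width differed more between libraries than that of Ctcf.

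Each file is a list of peaks, so read depth is unknown and the lists' lengths stand in for it. The WT H3K27ac lists held 34324 to 40545 peaks on chromosomes 1 to 19, X and Y and covered 78.2 to 91.5 Mb. The H3K4me3 WT list held 16341 peaks after intervals listed once per summit were collapsed, the PPARg WT lists 15520 and 16617, and the CTCF WT lists 24566 and 27585. The Wilson 95% intervals given beside shares cover only counting error over regions, and neighbouring regions are not independent of each other. The growth text attached to the histone libraries describes neural stem cells although their tissue is given as liver. Of 12 neural stem cell markers 1 (Olig1) had a marked region at its start, whereas all 16 hepatocyte transcription factors and all 20 plasma protein genes did. Over all protein-coding genes the share was 46.7%.

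Marked regions were wider and more enriched for H3K27ac than unmarked ones in each WT library. The median covered width of marked regions was 2366 bp in WT 1, 2507 bp in WT 2 and 2202 bp in WT 4, against 1805, 1943 and 1611 bp for unmarked regions. The lowest of the 3 marked medians lay above the highest unmarked median. The ratio of medians was 1.32 (log2 0.40 ± 0.04, SD, n = 3 libraries). The median fold enrichment that the authors gave the peaks was 4.78, 4.99 and 4.79 for marked regions and 3.52, 3.42 and 3.5 for unmarked regions. That is a ratio of 1.39 (log2 0.48 ± 0.06, SD, n = 3 libraries). Both differences had the same sign in 3 of 3 libraries and an exact sign-flip permutation p of 0.25 (two-sided; 0.5 after Benjamini-Hochberg adjustment over the 4 tests of marked against unmarked), which is the smallest 3 libraries can give. The width difference depended on weak peaks: with H3K27ac peaks of −log10 q 3 or more, 8028 marked and 4453 unmarked regions were left and the log2 width ratio was −0.14, while that of fold was 0.20. The medians were then 2829.5, 3038.5 and 2702 bp for marked and 3029, 3424 and 2985 bp for unmarked regions. Among regions within 1 kb of a gene start the log2 width ratio was 0.09, and over bases covered in all 3 WT it was 0.76.

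**Figure D1:**
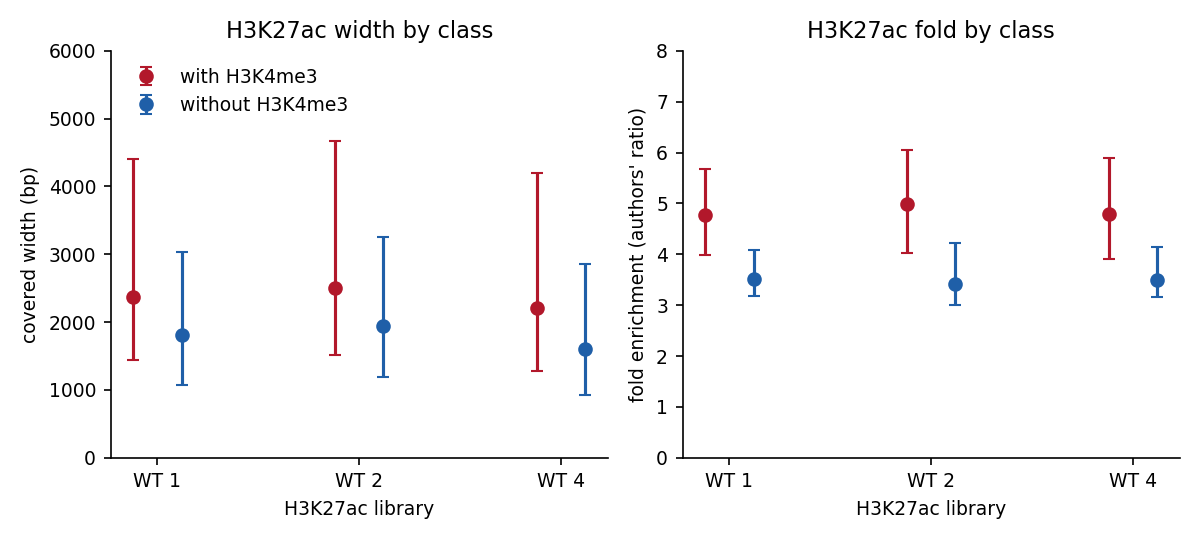
Median covered width (left, bp) and median fold enrichment (right, the authors' ratio) of H3K27ac regions in the 3 WT libraries, marked in red and unmarked in blue, with bars from the lower to the upper quartile over regions. Every red median, 2202 to 2507 bp and 4.78 to 4.99-fold, lies above the blue ones, 1611 to 1943 bp and 3.42 to 3.52-fold, and the quartile ranges of width overlap.

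The spread within each class was wide. The upper quartile of covered width in WT 1 was 4406.5 bp for marked and 3034 bp for unmarked regions, and the 90th percentile was 8200 and 5004 bp. By mean width over the libraries, 28.3% of the 4106 regions under 1 kb were marked, 37.4% of those of 1 to 2 kb, 43.6% of those of 2 to 4 kb and 57.1% of the 5291 regions over 4 kb. H3K4me3 took up a median of 59.9% of the span of a marked region, or 1599 bp. Across the 10763 marked regions the H3K4me3 bases inside the region and the H3K27ac width had a Spearman rho of 0.58. Those bases cannot exceed the span of the region, so part of that rho is built in. H3K4me3 fold and H3K27ac fold percentile had a rho of 0.48. Both are descriptions over regions, which share libraries and a position. At the edge of the rule, 90 marked regions held 200 bp of H3K4me3 or less and had a median width of 2091 bp, and 35.6% of them lay within 1 kb of a start. Only 5 unmarked regions lay within 200 bp of an H3K4me3 peak, with a median width of 1737 bp.

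The classes differed most in where they lay. Of the marked regions, 83.8% (interval 83.1 to 84.5%) came within 1 kb of the start of a protein-coding gene, and of the unmarked regions 4.77% (4.45 to 5.13%). A start lay inside 81.9% of the marked regions. For 4395 genes without a listed start both gene ends counted as starts, so a start here may be a gene's far end. The median unmarked region was 24101 bp from the nearest start, with quartiles of 9083 and 59799 bp, and 14.4% were over 100 kb away. Unmarked regions were 57.1% inside a gene but away from its start and 38.1% between genes. Of the 1742 marked regions farther than 1 kb from a coding start, 35.8% were within 1 kb of an end of a non-coding gene, against 11.1% of the 14279 unmarked regions that far out. The 1119 marked regions with neither kind of gene nearby held a median of 736 bp of H3K4me3 at a median fold of 6.13, against 1709 bp and 11.8-fold in the marked regions at coding starts.

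The share of regions with a PPARg peak was lower among marked than among unmarked regions, by an amount that varied with the width of the region. A peak of PPARg WT 4 lay on 3360 marked regions (31.2%, interval 30.3 to 32.1%) and on 5517 unmarked ones (36.8%, 36.0 to 37.6%), against 34.5% of all regions. For PPARg WT 2 the numbers were 3360 (31.2%) and 5699 (38%), against 35.2% of all regions. The equal counts of 3360 are different sets, since 2846 marked regions had a peak of both libraries and 514 of each library alone. The ratio of shares was 0.835 (log2 −0.26 ± 0.03, SD, n = 2 libraries), lower in 2 of 2 libraries, with an exact sign-flip permutation p of 0.5, the smallest 2 libraries can give. A PPARg site called in both libraries was held by 25.5% of marked and 31.5% of unmarked regions, against 29% of all regions.

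Width and position both moved that comparison. Among regions of 1 to 2 kb, 9.0% of the marked and 28.2% of the unmarked had a peak of PPARg WT 4, and 9.12% and 29.2% one of WT 2, a log2 ratio of −1.66. Among regions over 4 kb the shares were 68.8% and 68.8% in WT 4 and 68.7% and 69.2% in WT 2. By H3K27ac fold, the regions in the top quartile had a site of both libraries in 43.8% of the 4920 marked and 83.9% of the 1520 unmarked. Away from starts the order turned round: of regions farther than 1 kb from a start, 47.0% of the marked and 37.0% of the unmarked had a peak of WT 4, and 48.5% and 38.3% one of WT 2, a log2 ratio of 0.34. Those marked regions were also the wider ones, with a median width of 2685 bp against 1759 bp. Matched for width, the marked regions of 1 to 2 kb away from starts had a peak of WT 4 in 19.1% and the unmarked in 28.4%, whereas those over 4 kb had one in 78.4% and 69.1%. Over all regions the log2 ratio was −0.14 without H3K27ac WT 1, −0.11 without WT 4, −0.45 with the class taken from annotated starts and −0.87 with H3K27ac peaks of −log10 q 3 or more.

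**Figure D2:**
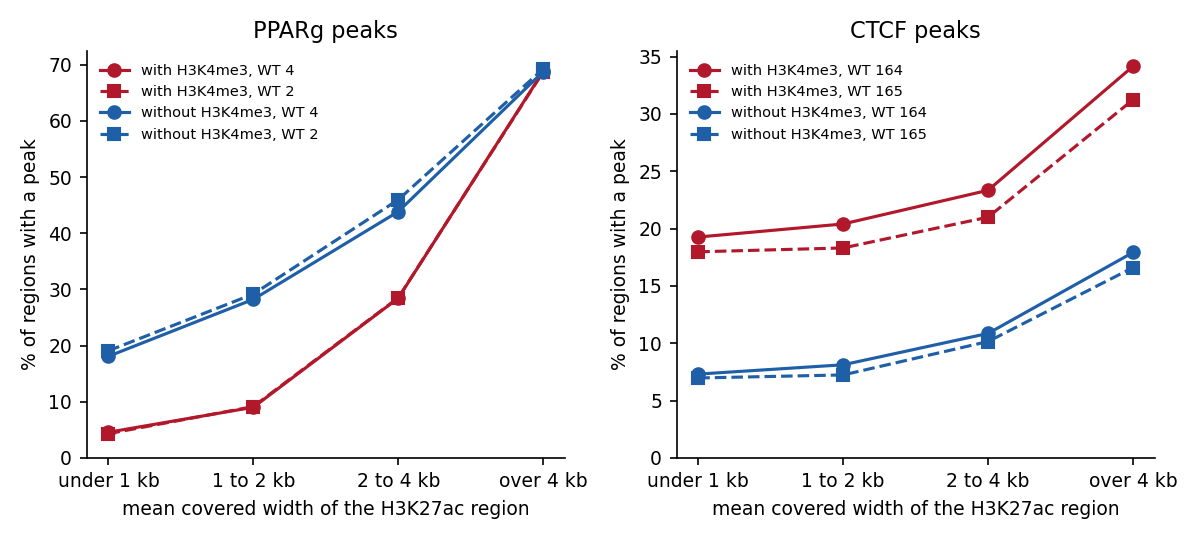
Percentage of marked (red) and unmarked (blue) H3K27ac regions with a PPARg peak (left) or a CTCF peak (right) against the mean covered width of the region, 1 line per WT library of the factor. The PPARg lines are apart at 1 to 2 kb (9.0 and 9.12% against 28.2 and 29.2%) and meet over 4 kb, and the red CTCF lines lie above the blue ones in every width class.

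CTCF showed the opposite order at every width. A CTCF WT164 peak lay on 25% of marked regions (2694, interval 24.2 to 25.9%) and 10.2% of unmarked ones (1532, 9.74 to 10.7%), against 16.4% of all regions. A CTCF WT165 peak lay on 22.7% (2445) and 9.42% (1413), against 15% of all regions. The ratio was 2.43 (log2 1.28 ± 0.02, SD, n = 2 libraries), higher in 2 of 2 libraries, with an exact sign-flip permutation p of 0.5, again the smallest possible. Under 1 kb of width the WT164 shares were 19.3% and 7.31%, and over 4 kb 34.2% and 17.9%. The excess was smaller, at a log2 ratio of 0.72, among regions within 1 kb of a start, and 1.32 among those farther out. A CTCF site of both libraries was held by 21.6% of marked and 9.06% of unmarked regions, against 14.3% of all regions. Such a site lay in 28.1% of the marked regions that had a PPARg site and 19.3% of those that had none, and in 10.7% and 8.29% of the unmarked regions. Both factors together occupied 7.17% of the marked and 3.37% of the unmarked regions.

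Seen from the binding sites, PPARg in WT liver lay on H3K27ac and CTCF mostly did not. Of the 11703 PPARg sites called in both WT libraries, 38.8% were in marked regions, 49.7% in unmarked regions, 6.14% in H3K27ac of 1 or 2 WT only and 5.31% outside H3K27ac. Of the 22147 CTCF sites, 11.5% were in marked and 6.41% in unmarked regions, and 78.7% were outside. In marked regions 59.2% of the PPARg sites touched H3K4me3 itself, with a median distance of 2872 bp to the nearest start, against 72.8% and 502 bp for CTCF sites. The fold enrichment of the sites differed little between the classes. PPARg sites had a median fold of 7.06 in marked and 7.38 in unmarked regions in WT 4, and of 8.50 and 9.03 in WT 2 (ratio 0.949). For CTCF sites the medians were 10.8 and 10.5 in WT164 and 9.86 and 9.49 in WT165 (ratio 1.03). Each ratio had one sign in 2 of 2 libraries and an exact sign-flip permutation p of 0.5. PPARg sites numbered 9.49 per 100 kb of marked and 12 per 100 kb of unmarked region, and CTCF sites 5.34 and 2.94.

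**Figure D3:**
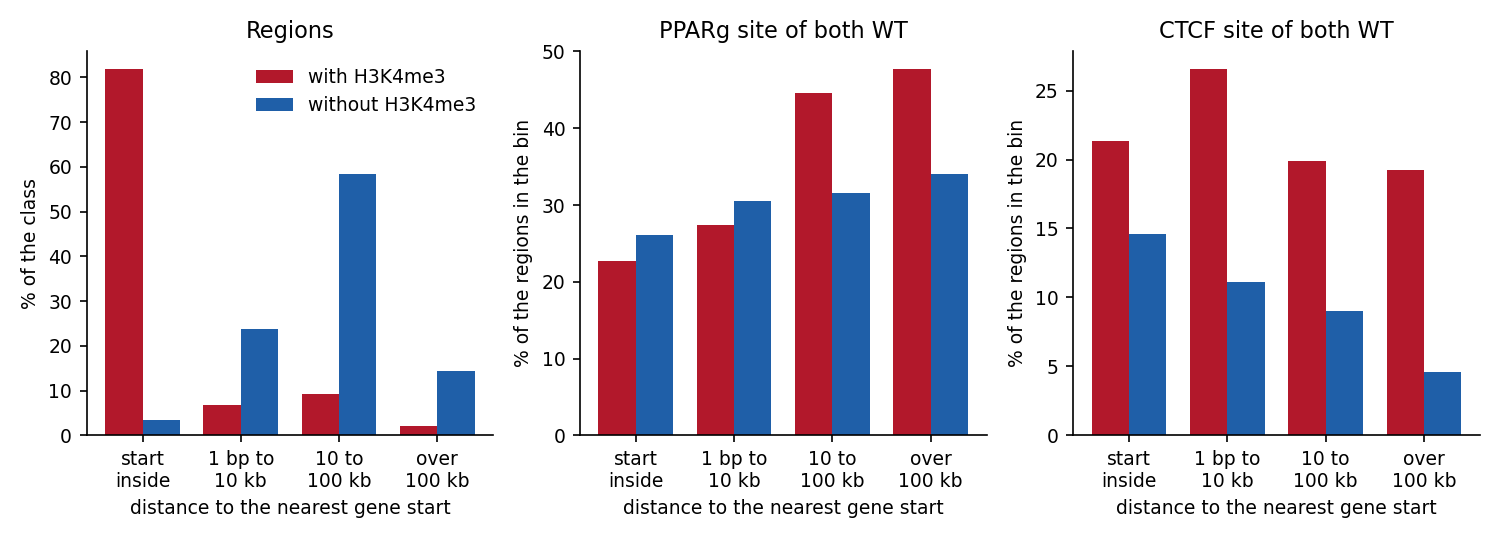
Share of each class by distance to the nearest protein-coding start (left), and the percentage of the regions in each distance bin with a PPARg site (middle) or a CTCF site (right) called in both WT libraries, marked in red and unmarked in blue. Marked regions lie mostly on a start (81.9%) and unmarked ones mostly 10 to 100 kb away (58.4%), and in the bins over 10 kb the red PPARg bars (44.6 and 47.7%) exceed the blue ones (31.5 and 34.0%).

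Of 21887 protein-coding genes, 46.7% had a marked region within 1 kb of a start, 29.4% an unmarked region inside the gene or within 10 kb of it, and 44.1% neither. Counted over the 10218 genes with a marked start, so that a region shared by several genes counts for each, the start region had a median width of 2360 bp, covered 4 kb or more for 27.7%, and held a PPARg site of both libraries for 23.1% and a CTCF site for 22.2%. Of all marked regions over 4 kb, at starts or not, 61.0% held a PPARg site of both libraries. Unmarked regions near a gene followed gene length: 11.0% of genes in the lowest quartile of length (median 2226 bp) and 49.9% of those in the highest (median 90624 bp) had one. The gene lists below differ in length, and the part of length in their counts was not tested. Some list members share a region (Apoa1 with Apoc3, Apoa2 with Nr1i3, Hadha with Hadhb, Plin4 with Plin5, Abcg5 with Abcg8), so their counts are not separate observations.

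Of the 19 gene lists, hepatocyte transcription factors had the widest marked starts by median. All 16 hepatocyte transcription factors had a marked region at the start, against 46.7% of all genes, with a median width of 15438 bp. A PPARg site of both libraries was held there by 15 of them, against 10.8% of all genes. Hnf4a, the nuclear receptor that maintains hepatocyte identity, had 12826, 17686 and 15101 bp in WT 1, WT 2 and WT 4 and was the member with no such site. The pioneer factor Foxa1 had 12192, 11216 and 10907 bp with 8250 bp of H3K4me3, and Foxa2, of the same family, 9803, 13371 and 13334 bp. All 3 thus exceeded the median of all marked starts in each library. An unmarked region lay near 11 of the 16 (68.8%, against 29.4% of all genes), with a median of 1 per gene.

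The 20 plasma protein genes all had a marked start with a PPARg site, at a median width of 11498 bp, and 8 (40%) had an unmarked region nearby. Over all genes the shares were 46.7% with a marked start, 10.8% with a PPARg site there and 29.4% with an unmarked region nearby. Ttr, which encodes the thyroxine carrier transthyretin, had 13880, 14426 and 13539 bp. Trf, the iron carrier transferrin, had 10649, 11881 and 11146 bp, and Fga, the alpha chain of fibrinogen, 19428, 24046 and 22822 bp with 4 PPARg sites. Among these, Fga was the widest and Alb the weakest in fold, at 4.04, 4.82 and 4.58 in WT 1, WT 2 and WT 4.

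Genes that burn fat also had wide starts with PPARg. All 18 genes of fatty acid oxidation and ketogenesis had a marked start, at a median width of 7913 bp, and 17 had a PPARg site there, against 46.7% and 10.8% of all genes. Cpt1a, which controls fatty acid entry into mitochondria, had a region of 22272, 22675 and 22263 bp with 6 PPARg sites. The regions of its partner Cpt2, at 3561, 3479 and 3281 bp, were narrower in every library but more enriched, with folds of 8.32, 8.07 and 9.50 against 6.51, 7.10 and 7.00 for Cpt1a. Acadm and Acadl, which start the breakdown of medium and long fatty acids, had a mean width of 7659 and 3658 bp, with 3 and 1 PPARg sites.

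PPARg's own gene was different. Pparg had no marked region at any start, and the third start lay in an unmarked region with folds of 3.63, 3.67 and 3.34 in WT 1, WT 2 and WT 4. Cd36, a fatty acid transporter and known PPARg target, likewise had only an unmarked region at its start, of 2789, 2086 and 1604 bp, where each PPARg library had a peak but no site was shared by both. In the list of PPARG targets and lipid droplet genes 11 of 16 had a marked start, 10 of them with a PPARg site, against 46.7% and 10.8% of all genes, and the median width was 12909 bp. Fabp4, the fatty acid binding protein of adipocytes, had a marked start of 2738, 2422 and 2081 bp at folds of 3.29, 3.92 and 3.84, below those of Fabp1 at 5.58, 6.48 and 7.13.

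Genes of fat synthesis had both kinds of region. Of 16 genes of fatty acid and triglyceride synthesis, 11 had a marked start, against 46.7% of all genes. An unmarked region lay near 13 (81.3%) and 3 or more lay near 7 (43.8%), against 29.4% and 6.52% of all genes. The median length of the list was 39465 bp, against 17169 bp over all genes. An unmarked region that held a PPARg site of both libraries lay near 11 of them, against 12.4% of all genes. Acaca, which makes malonyl-CoA, had 7 unmarked regions and no marked start by this rule. A PPARg site lay in 3 of the 7, against 31.5% of all unmarked regions. Srebf1 and Mlxipl, the lipogenic transcription factors, had marked starts with a mean width of 7125 bp (the wider of 2 regions) and 4696 bp, and 1 and 3 unmarked regions. Acly, which supplies acetyl-CoA, had a marked start of 2973 bp without PPARg and 3 unmarked regions.

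Marked starts were found at 16 of 17 genes of bile acid and cholesterol metabolism and 15 of 16 of xenobiotic metabolism. Genes of gluconeogenesis, urea and amino acid metabolism had them at 15 of 16. The share over all genes was 46.7%. PPARg sites lay in 12, 13 and 11 of the marked starts of these lists, against 10.8% of all genes and 23.1% of genes with a marked start. Cyp7a1, which catalyses the controlling step from cholesterol to bile acids, had a marked region of 7514, 10860 and 6559 bp across 1 end of its gene span. The other end lay in an unmarked region of 6360, 8564 and 4039 bp. Cyp8b1, which shapes the bile acid pool, had a marked region of 29313, 33049 and 32512 bp, wider in each library than that of Cyp27a1 (11589, 12580 and 12466 bp), which opens the other route. Pck1, the gluconeogenic enzyme PEPCK, had 26910, 29550 and 29965 bp with 6 PPARg sites, and G6pc, which releases glucose, 12840, 12334 and 14089 bp with 4. An unmarked region lay near 14 of the 16 xenobiotic genes, against 29.4% of all genes. Cyp2b10, which is induced by drugs through CAR, was the gene of that list with no marked start.

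The ribosomal, housekeeping and cohesin lists had median start widths near or somewhat above that of all genes, and the clock list had a wider one. All 16 cytosolic ribosomal protein genes had a marked start, against 46.7% of all genes. Their median width was 2285 bp, close to the 2360 bp of all genes. A PPARg site was held by 1 of them (Rps2), against 23.1% of genes with a marked start. CTCF sites were present at 6 of the 16, against 10.4% of all genes and 22.2% of genes with a marked start. Rpl3, of the large subunit, had 2221, 2363 and 2992 bp and Rpl4 had 1539, 2102 and 1269 bp. Neither held a PPARg site of both libraries, although a peak of PPARg WT 2 alone lay on the Rpl3 region. Of 16 housekeeping genes 15 had a marked start, against 46.7% of all genes, at a median of 3023 bp. PPARg was held by 3, against 10.8% of all genes and 23.1% of genes with a marked start. Those 3 were Actb (beta-actin), Gapdh (a glycolytic enzyme) and Snrpd3 (a protein of the splicing machinery), with start regions of 12375, 7149 and 10004 bp. In the list of CTCF, cohesin and related proteins, 10 of 12 had a marked start, against 46.7% of all genes, at a median of 2613 bp. A CTCF site was held by 6, Ctcf and the cohesin subunit Smc3 among them, against 22.2% of genes with a marked start. Of 16 circadian clock genes, 14 had a marked start (median 8136 bp), against 46.7% of all genes. A PPARg site lay in 13 of these, against 23.1% of all genes with a marked start. Per1, a repressor of the clock, had folds of 8.57, 10.4 and 9.42, above those of Arntl at 4.95, 4.92 and 3.55.

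**Figure D4:**
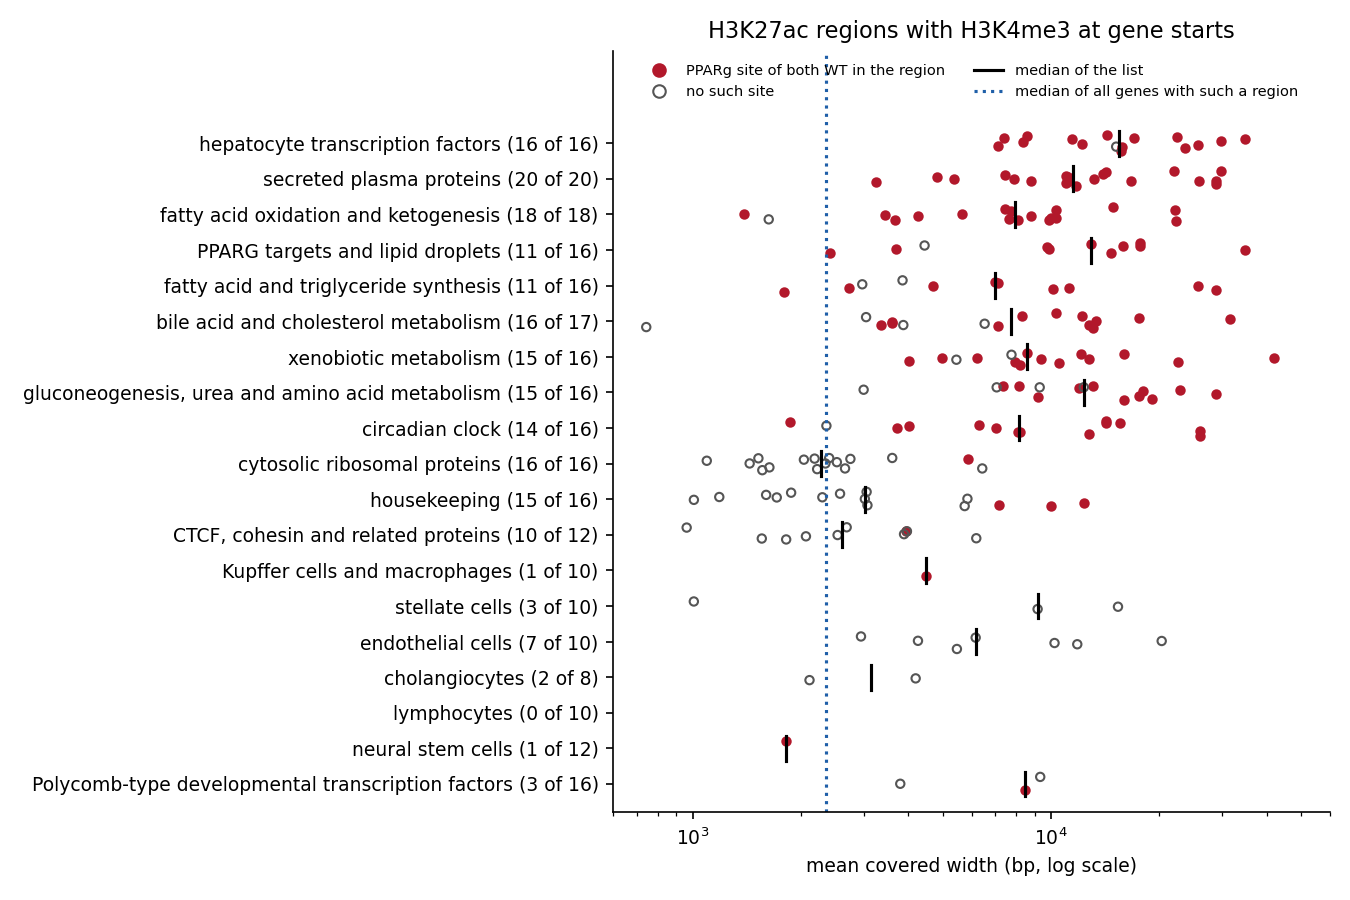
Mean covered width (bp, log scale) of the marked H3K27ac region at the start of each list gene that has one, 1 point per gene, filled where the region holds a PPARg site of both WT libraries; bars are list medians and the numbers give the genes with such a region of those in the list. Hepatocyte transcription factors (median 15438 bp) and plasma proteins (11498 bp) lie to the right of the dotted median of all genes (2360 bp), ribosomal proteins (2285 bp) around it, and the endothelial points are all open.

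Among markers of other liver cells, marked starts were counted list by list. Of 10 endothelial genes, 7 had a marked start, against 46.7% of all genes. The median width was 6162 bp but the median fold percentile was 38.6, against 72.8 over all genes. All 10, with a median length of 44569 bp, had an unmarked region nearby, against 29.4% of all genes and 49.9% of the longest quartile. None had a PPARg site of both libraries in the marked start, against 23.1% of genes with a marked start. Kdr, a VEGF receptor, had 8623, 11831 and 10236 bp at folds of 3.39, 3.64 and 3.84, and Pecam1, an endothelial adhesion protein, had only an unmarked region there, of 2166, 2529 and 3496 bp. Marked starts were found at 3 of 10 stellate cell genes, 2 of 8 cholangiocyte genes, 1 of 10 Kupffer cell genes (Cd68, with a PPARg site) and 0 of 10 lymphocyte genes, against 46.7% of all genes. An unmarked region lay near 6, 1, 2 and 2 genes of these lists in the same order, against 29.4% of all genes. Of the Kupffer cell genes 7 had neither kind of region, against 44.1% of all genes. Adgre1, Clec4f, Vsig4 and Timd4 were among those 7, and 2 other Kupffer cell genes (Csf1r and Spi1) had an unmarked region at the start. Of 16 developmental transcription factors of the kind held by Polycomb, 3 had a marked start and 13 had neither, against 46.7% and 44.1% of all genes. In bulk liver, fewer cells of a type and less acetylation per cell cannot be told apart.

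Of the 10 strongest marked regions, 8 lay at a coding start, against 83.8% of all marked regions within 1 kb of one. By mean percentile of fold they included those at or nearest to Fxyd1, Arhgap5, Brd2, Slc8b1, Plekhg2, Leng9, Id2, Ywhaz and Cenpo. The first, chr7:31053255-31059621 at Fxyd1, a regulator of the sodium pump, had folds of 9.34, 10.4 and 11.0 in WT 1, WT 2 and WT 4 over 5498 to 6336 bp. The region at Brd2, which encodes a reader of acetylated histones, had 9.25, 9.53 and 10.3. The Arhgap5 region lay 86249 bp from that gene's start, beside an end of the non-coding gene Gm35239, and 2729 bp of H3K4me3 covered it. Of the 10, 7 held a PPARg site and 3 a CTCF site, against 43.8% and 24.7% of marked regions in the top quartile of fold.

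Of the 10 strongest unmarked regions, 9 lay farther than 1 kb from a start and all 10 held a PPARg site, against 31.5% of all unmarked regions and 83.9% of those in the top quartile of fold. Their nearest genes were Arg1, Kcnk16, Noct, Cnnm1, Dlgap2, Phlda1, Themis3, Hspa4, Errfi1 and Slc45a1, at 722 to 284175 bp. The strongest, chr10:24946105-24953247, lay between genes 18635 bp from the start of Arg1, the liver arginase of the urea cycle, with folds of 8.85, 8.89 and 9.52 and 2 PPARg sites. The region 18418 bp from Noct, a rhythmic enzyme also called Nocturnin, had 8.41, 8.84 and 9.74 with 2 PPARg sites and 1 CTCF site, the one CTCF site among the 10. That nearest Errfi1, an inhibitor of EGF receptor signalling, was the widest of the 10 at 14159, 15137 and 13697 bp.

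The widest regions of each class were of another order of size, so their site counts are to be read against their width. Over all regions above 4 kb there were 12.1 PPARg sites per 100 kb of marked and 12.9 per 100 kb of unmarked region. Among marked regions, chr15:58972253-59087167 at Mtss1, which encodes a protein of the actin cytoskeleton, covered 108058, 114396 and 110924 bp and held 12 PPARg sites and 1 CTCF site, with 4445 bp of H3K4me3. Shb, a signalling adaptor, followed at 83953, 85610 and 85442 bp with 10 PPARg sites. The third, inside Frmd8, came within 1 kb of an end of the non-coding gene Malat1 and held 15657 bp of H3K4me3. The fourth, nearest Wdr5, held 438 bp of H3K4me3 in a mean width of 53239 bp, and the fifth, at the actin-bundling gene Actn4, covered 53140, 51747 and 49364 bp. Among unmarked regions the widest, chr2:27705914-27765654, covered 53387, 57179 and 57608 bp at folds of 3.75, 3.66 and 3.95. It ran from inside Rxra across an end of that gene's span. Rxra encodes the partner of PPARg and had another, marked, region of mean width 34855 bp with 4 PPARg sites, whereas the unmarked one held 0 PPARg sites of both libraries and 1 CTCF site. The other 4 were inside Zbtb16, Pitpnm2, Igf1 (insulin-like growth factor 1, a liver hormone) and Plpp3, with 8, 5, 6 and 4 PPARg sites.

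Genes with the most unmarked regions were long. Prkce, a protein kinase C of 490135 bp on chromosome 17, had 27, of which 5 held a PPARg site and 5 a CTCF site. Over all unmarked regions the shares were 31.5% with a PPARg site of both libraries and 9.06% with a CTCF site. Arhgap26 had 26, Rad51b 22 and Nfia 21, followed by Vps13d, Lpp, Tshz2 and Rere with 20 each and Itpr1 and Zbtb20 with 19 each. The shortest of the 10, Vps13d, was 323993 bp long, against a median of 17169 bp over all genes. Nfia, a nuclear factor I transcription factor, and Zbtb20, a zinc-finger repressor abundant in liver, had no marked region within 1 kb of a listed start. Itpr1, the calcium channel of the endoplasmic reticulum, had a PPARg site in 10 of its 19 unmarked regions, the most among the 10, against 31.5% of all unmarked regions.

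Start sequences differed between the classes. In 21263 windows from 250 bases before to 50 after a listed start (RefSeq, 17492 genes, GRCm38.p6), the median number of CpGs was 22 for the 9717 starts inside marked regions and 5 for the 395 inside unmarked regions. The median was 17 for 634 starts with H3K27ac of 1 or 2 WT and 5 for 10517 with none. Marked starts made up 9.06% of windows with 0 to 4 CpGs and 75.1% of those with 20 or more, as at Ctcf with 47 in its window. Unmarked starts made up 3.18% and 0.406%. Within marked starts the share with a PPARg site of both libraries was 31.3% at 0 to 4 CpGs and 6.57% at 20 or more, while the share with a CTCF site was 3.47% and 10.0%. Among gene lists the median was 4 CpGs for plasma proteins, 2 for xenobiotic metabolism, 19 for ribosomal proteins and 41.5 for CTCF, cohesin and related proteins.

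**Figure D5:**
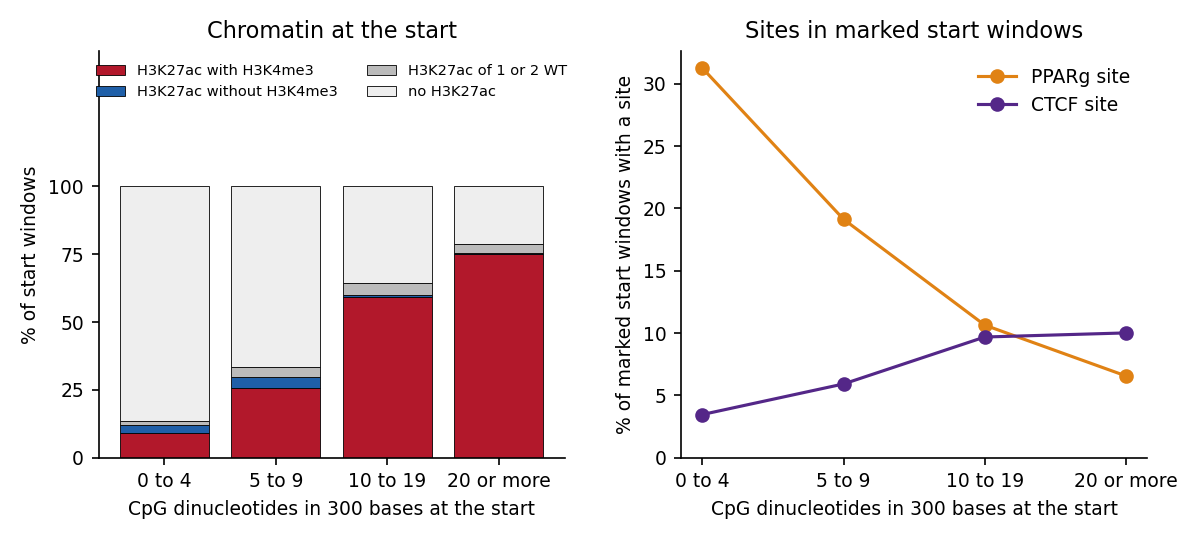
Left, percentage of start windows in each H3K27ac state by the number of CpG dinucleotides in 300 bases at the start; right, percentage of marked start windows with a PPARg or CTCF site of both WT libraries in the same classes. Marked starts go from 9.06% of windows with 0 to 4 CpGs to 75.1% with 20 or more, and PPARg and CTCF go in opposite directions.

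Motifs were searched on both strands of these windows. The TATA box TATAAA was in 6.29% of marked and 14.2% of unmarked windows, against 12.6% of all windows. The GC box GGGCGG, which itself holds a CpG, was in 67.0% and 27.1%, against 46.2% of all. The CTCF core spelled out above was in 12.4% of the 896 marked windows with a CTCF site and 1.87% of the marked windows without one, against 2.34% of all windows. The DR1 element was in 8 of 982 marked windows with a PPARg site (0.815%) and 21 of 8735 without (0.240%), against 0.353% of all. Fabp1 was among the 8. A match is a description of letters, and the absence of one says only that these letters are not in the window. Rplp0 and Fabp1 were chosen for printing after their matches were seen.

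The KO livers, whose lists the rule did not use, called nearly all marked regions again and somewhat fewer of the unmarked. Marked regions had an H3K27ac peak in 98.6% (KO 2), 99.2% (KO 3) and 99.9% (KO 4), and unmarked regions in 90.5%, 93.2% and 98.8%. The 3 KO lists held 35480, 39092 and 51311 peaks, so the shares followed the lengths of the lists, and the part of length in them was not tested. All 3 KO libraries called 98.1% of the marked and 86.9% of the unmarked regions. The classes also differ in strength: among regions with a mean fold percentile under 25, 80.3% of 644 marked and 71.7% of 5670 unmarked were called in all 3, and at 75 or over 100% of 4787 and 99.9% of 1437. The KO H3K4me3 list (KO 4) lay on 95% of the marked (10230) and 2.19% of the unmarked regions (329). No comparison of genotypes is made from these numbers, because presence in every WT library was part of how the regions were chosen. Of the WT H3K4me3 peaks themselves, 86.1% of 16341 lay on H3K27ac regions of all 3 WT, and the 1307 without any WT H3K27ac had a median width of 328 bp against 1367.5 bp.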

How the data were processed

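ChIP-seq peak lists of mouse liver, 1 per library, were used. Per the submitters' processing notes, the tools were MACS2 2.1.2, BWA 0.7.12, deepTools 3.1.3 and Picard 1.77, and the build mm10; the control for peak calling is not given in the sources used here. The authors deposited a fold enrichment per peak (a ratio over background), −log10 p and −log10 q, and an unused whole-number score. The smallest −log10 q listed was near 1 for H3K27ac, 1.31 for H3K4me3 and PPARg WT 4, and 3 for PPARg WT 2 and CTCF; CTCF lists were freed of blacklisted regions per their names, the others not. Different thresholds and kits set how many peaks a list holds.

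Peaks off chromosomes 1 to 19, X and Y were dropped, and the rest were merged where they shared 1 bp. Width is the bases a library's peaks cover in a region, and fold is their mean weighted by length. A fold percentile is the mean over the 3 WT libraries of a region's rank. A site of both libraries is a merged PPARg or CTCF region with a peak of each. Starts of 21887 protein-coding genes were those RefSeq lists (17492 genes), else both gene ends (4395 genes). The 271 genes in 19 lists were matched by symbol (270) or synonym (1). Class medians or shares were compared within each library by exact sign-flip permutation. Named were the 10 strongest and 5 widest regions per class, the 10 genes with most unmarked regions, up to 4 genes in list order per list, Ctcf and Pparg; others were chosen after their values were seen, and some that the rule names are not reported here. Members and lists were chosen with earlier results of these data known. Code was tested on simulated data (Python 3.11.15, pandas 2.3.3, numpy 2.4.6, scipy 1.17.1). Alternatives varied the H3K4me3 and H3K27ac thresholds, the class rule, the width and place of regions, the peak thresholds, the windows and the libraries left out.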

Additional observations from a re-analysis of the deposited data

How the results depend on the processing

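Fold kept its direction in 14 of 14 alternatives (log2 ratio of marked to unmarked 0.20 to 0.54) and CTCF in 18 of 18 (0.72 to 1.73). Width kept it in 11 of 12 (−0.14 to 0.76), turning to −0.14 with H3K27ac peaks of −log10 q 3 or more, which left 4453 unmarked regions. PPARg kept it in 17 of 18 (−1.66 to 0.34), turning to 0.34 among regions farther than 1 kb from a start, an alternative chosen after seeing the data, as were regions within 1 kb and peaks per base. The cause was not tested. Leaving out 1 library gave 0.46 to 0.56 for width, 0.46 to 0.54 for fold, −0.28 to −0.11 for PPARg and 1.27 to 1.42 for CTCF. The share of marked regions within 1 kb of a start was 87.6% with 500 bp of H3K4me3 required, 91.1% with H3K4me3 peaks of −log10 q 10 or more, 85.8% with the KO 4 H3K4me3 list and 82.4% over bases covered in all 3 WT. The share of unmarked regions there was 6.14%, 9.72% and 4.00% under the first, second and last of these. Genes with a marked start were 48.9% with a window of 5 kb, and genes with an unmarked region nearby 51.0% within 50 kb. With the class taken from annotated starts the share at starts has no value, since it is the rule. No paired analysis was possible because the numbers 2 and 4 that H3K27ac labels share link WT with KO libraries, which no test compared; marked and unmarked regions were compared within each library, so those tests are paired by library. Peak lists carry no read depth, so absence of a peak is not absence of the mark.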

Other observations

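Of the 14995 unmarked regions, 521 had a start inside, or an end of a gene without a listed start. Of those 521, 26.1% held a PPARg site of both WT libraries. Only those whose nearest gene has a listed start were ranked by H3K27ac fold percentile. The 10 strongest, chosen after their values were seen, were at Sult1b1, Syne3, Alpl, Vwa3b, Acnat2, Serpina12, Slc15a5, Unc93a2, C1qtnf6 and Atxn7l1. Each held 1 to 3 such sites, against 83.9% of all unmarked regions in the top quartile of fold with at least 1, and Syne3 and C1qtnf6 held 1 CTCF site as well. Sult1b1, a sulfotransferase, stood at a fold percentile of 96.5 with a mean width of 3933 bp (chr5:87534859-87539130). Alpl, the tissue-nonspecific alkaline phosphatase, had 12235 bp and 2 PPARg sites (chr4:137763884-137776494). The reverse case, marked regions far from coding and non-coding gene ends, was led in strength by regions 7094 bp from the start of Ywhaz and 73742 bp from that of Chd2, and included 1 region 2751 bp from a listed start of Nr5a2, a nuclear receptor of bile acid genes, which held 3974 bp of H3K4me3 and 1 PPARg site.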
